A study of Mus musculus with 43 samples.

Results

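The 41 genes described here encode proteins of autophagy and of the lysosome, and they were taken by symbol from a list that was drawn up with earlier results of these data known. All 41 were present among the 14622 genes of the hemizygous table and among the 13741 genes of the homozygous table, and all 41 passed the filter on low values in both. They fall into 23 autophagy genes, 14 genes of lysosomal enzymes and membrane proteins, and 4 subunits of the lysosomal proton pump.

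The study measured liver RNA of 36 male mice of the strain C57BL6/J x FVBN at 4 to 5 months of age, in 43 libraries that form 10 groups. PiZ is a transgene for the human alpha-1-antitrypsin Z variant, which misfolds and is retained in hepatocytes. LIRKO stands for knockout of the liver insulin receptor and F1KO for knockout of FOXO1, which insulin normally excludes from the nucleus. The comparisons ask how insulin signalling in the liver changes gene expression in this model of alpha-1-antitrypsin deficiency.

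The hemizygous table holds 3 wild-type mice (WT), 4 LIRKO mice, 5 PiZ mice (Z), 4 PiZ x LIRKO mice (Z LIRKO), 5 PiZ mice labelled with an asterisk (Zstar here) and 5 PiZ x LIRKO x F1KO mice (Z LIRKO F1KO). The Zstar and Z LIRKO F1KO mice carry the source name F1IRZZ and the other mice of this table IRZZ, so the F1KO mice were compared with Zstar. No PiZ x LIRKO mice with FOXO1 carry the name F1IRZZ, and loss of FOXO1 and this source cannot be told apart. The homozygous table holds the same 3 WT and 4 LIRKO mice, 3 mice with a homozygous transgene (ZZ) and 7 ZZ LIRKO mice. WT mice carry none of the alleles, and the promoter that drives the deletion in LIRKO and F1KO livers is not given in the sources used here. Each mouse number was taken as a separate animal.

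Autophagy wraps cytoplasm, organelles or protein aggregates in a double membrane that fuses with the lysosome, and in PiZ hepatocytes it is a known route by which retained alpha-1-antitrypsin is removed. Insulin restrains autophagy in the liver, by acting on the kinase ULK1 through mTORC1 and by keeping FOXO factors and TFEB, the main transcription factor of lysosome genes, out of the nucleus. TFEB and its relative TFE3 bind a palindromic E-box with the letters CACGTG, and FOXO factors bind forkhead sites with the core GTAAACA.

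RefSeq promoters on GRCm38.p6, from 250 bases before to 50 after each annotated start, were found for 32 of the 41 genes, as 37 promoters. The E-box stood in 14 of the 37 (37.8%) and in 2349 of all 32851 promoters (7.15%). It reads the same on both strands. By kind it was in 7 of 13 lysosomal promoters, in both promoters of the pump and in 5 of 22 autophagy promoters. The 8-base form TCACGTGA, which contains the E-box, was in 7 of the 37 (18.9%) and in 0.974% of all promoters, and the form longer by 1 base on each side was in 0 of the 37 and in 0.326% of all. The forkhead core GTAAACA, searched on both strands, was in 0 of the 37 and in 3.65% of all, which says only that these letters are not in these windows. Stretches of 90 bases are shown for 6 of the genes, 5 with the E-box in capitals and Gabarapl1 without one in its window. They were chosen after values and matches were seen. Lamp1 is at chr8:13159071-13159160 (plus strand), Ctsd at chr7:142387888-142387977 (minus), Atp6v0d1 at chr8:105566060-105566149 (minus), Atg5 at chr10:44268249-44268338 (plus), Mcoln1 at chr8:3500429-3500518 (plus) and Gabarapl1 at chr6:129533102-129533191 (plus).
Lamp1: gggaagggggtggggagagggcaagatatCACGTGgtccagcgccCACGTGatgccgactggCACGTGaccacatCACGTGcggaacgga
Ctsd: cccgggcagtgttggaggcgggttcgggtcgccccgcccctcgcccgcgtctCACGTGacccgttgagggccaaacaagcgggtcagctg
Atp6v0d1: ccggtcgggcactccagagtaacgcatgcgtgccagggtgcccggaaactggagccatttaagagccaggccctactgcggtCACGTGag
Atg5: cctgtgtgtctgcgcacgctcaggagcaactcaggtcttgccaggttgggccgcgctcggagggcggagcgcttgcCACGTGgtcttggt
Mcoln1: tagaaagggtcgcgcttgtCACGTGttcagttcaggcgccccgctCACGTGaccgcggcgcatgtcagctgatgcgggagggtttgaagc
Gabarapl1: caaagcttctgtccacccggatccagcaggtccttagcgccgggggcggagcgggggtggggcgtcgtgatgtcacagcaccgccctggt
Lamp1 held 4 copies, with first bases 61, 45, 28 and 15 bases before the annotated start, and no other of the 14 promoters held more than 2.

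**Figure D1:**
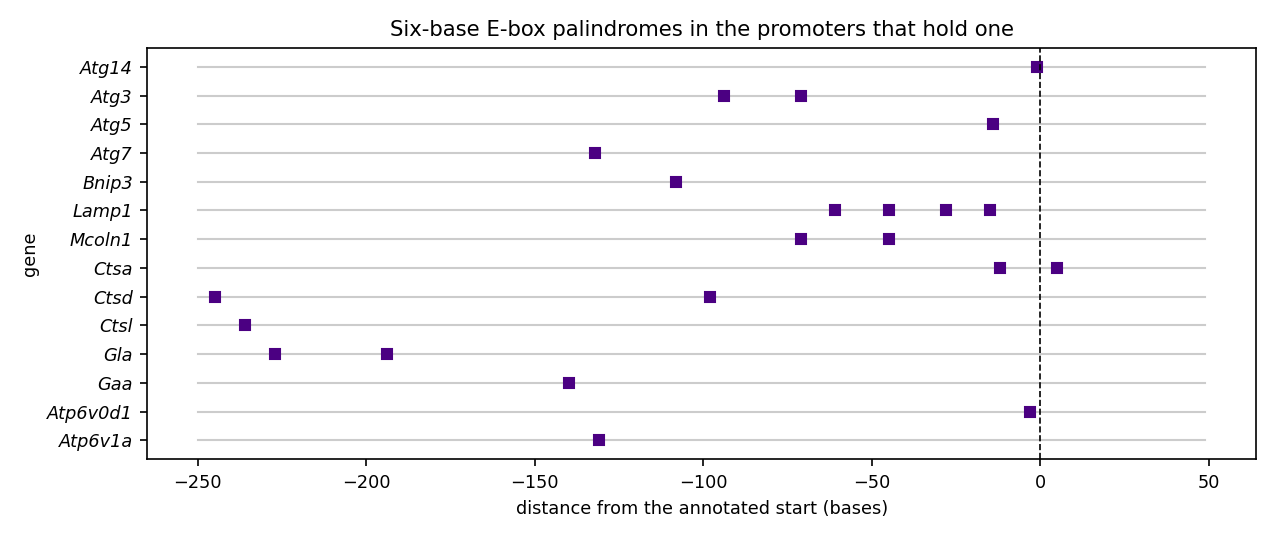
Positions of the six-base E-box palindrome in the 14 promoters of these genes that hold one; the horizontal axis is the distance in bases from the annotated start (dashed line), each row is 1 gene and each square 1 copy. Lamp1 has 4 copies, at -61, -45, -28 and -15, and the copies of the other genes are spread over the window.

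Values are log2 CPM, reads scaled to the size of the library, and differences between groups are log2 differences ± SE. Whether the mice of the groups overlap is given only as a description of the values. The share of all genes without overlap was not counted, and genes named for a small p tend to have groups apart. The libraries held 13.83 to 23.94 megareads in the hemizygous and 38.18 to 90.09 megareads in the homozygous table, so low values are more precise in the second. Insr, the insulin receptor gene, fell in every insulin receptor comparison, by 1.16 (LIRKO against WT), 1.25 (Z LIRKO against Z), 1.60 (Z LIRKO F1KO against Zstar) and 0.79 (ZZ LIRKO against ZZ), and Foxo1 fell by 2.77 in Z LIRKO F1KO against Zstar. Of 8 hepatocyte markers Tf was not used, and the others averaged 12.3 to 12.8 log2 CPM over the groups of the hemizygous and 12.0 to 12.7 over those of the homozygous table. Of 15 macrophage markers 10 rose and 0 fell in Z LIRKO against Z, and 13 rose and 0 fell in Z LIRKO F1KO against Zstar, and macrophages are rich in lysosomes. Clock genes also moved with genotype, measured as a clock value (late minus early clock genes). In the hemizygous table it averaged 0.29 in WT (-0.73 to 1.48) and 3.19 in LIRKO (2.04 to 4.01), without overlap. In the homozygous table it averaged 0.27 (-0.97 to 1.60) and 3.40 (2.31 to 4.29), also without overlap. The pancreas gene Prss2 lay above 0 log2 CPM in 8 libraries of the hemizygous and 3 of the homozygous table, 2 of the 3 WT mice in each.

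Per kilobase of exon, the highest WT levels in the hemizygous table belonged to Gabarapl1 (8.00 log2 CPM per kb), an Atg8-family protein of the autophagosome membrane, and to Lamp1 (7.93), the main glycoprotein of the lysosomal membrane. The cathepsins Ctsz (7.64), Ctsd (7.26) and Ctsb (6.88), proteases of the lysosome, and Gabarap (6.84) followed. Gla, which encodes alpha-galactosidase A, was lowest at 0.80 and Tfeb stood at 1.32. The options of counting, among them the strand rule, are not given, so reads where exons overlap another gene may be included or left out. The largest overlap with any 1 gene covers 43.9% of the exon bases of Becn1, 34.4% of Ctsd and 31.8% of Atg9a. It covers 28.3% of Gabarapl1, 26.9% of Ctsl and 22.3% of Bnip3.

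The 7 WT and LIRKO mice were in both tables, which shows how far a level depends on the table. Over 13307 shared genes the homozygous minus the hemizygous value had a median of -0.12, and 625 genes (4.70%) shifted by more than 1 either way. Of the 41 genes 3 did so, all upward, namely Gabarapl2 by 2.12, Map1lc3b by 1.60 and the mitophagy receptor gene Bnip3 by 1.29. The other 38 shifted by -0.53 to 0.09. Map1lc3b, which encodes the autophagosome protein LC3B, shifted unequally between the groups, by 2.05, 2.63 and 1.92 in the 3 WT mice and by 1.02, 1.24, 1.13 and 1.24 in the 4 LIRKO mice. In WT it read 6.51, 6.24 and 6.42 log2 CPM in the hemizygous and 8.56, 8.87 and 8.33 in the homozygous table, and in LIRKO 6.38, 6.34, 6.41 and 6.50 against 7.39, 7.58, 7.53 and 7.75. The same mice therefore gave a LIRKO minus WT difference of 0.02 ± 0.13 (adjusted p = 0.946) in 1 table and -1.03 ± 0.16 (adjusted p = 0.000233) in the other. Such a gap of more than 0.5 occurred in 775 genes (5.82%) and in no other of the 41. The cause was not tested, and each Map1lc3b result here is tied to its table.

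**Figure D2:**
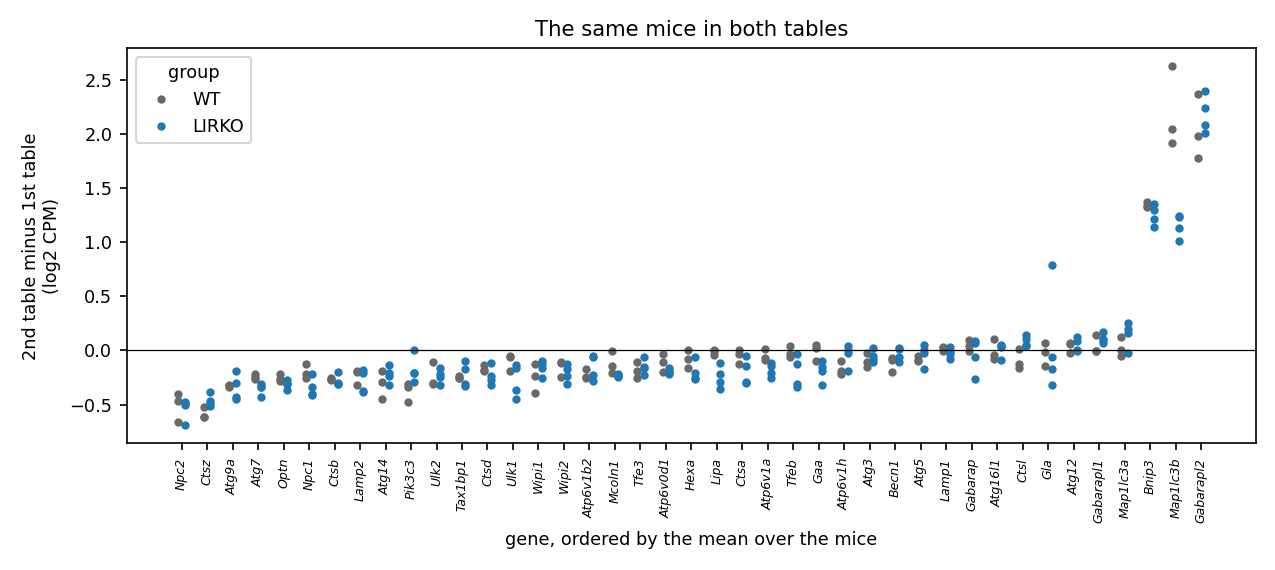
Homozygous (2nd) minus hemizygous (1st) table value in log2 CPM for each of the 41 genes in the 7 mice measured in both; grey points are WT and blue points LIRKO mice. Gabarapl2, Map1lc3b and Bnip3 lie above 1, Map1lc3b with WT above LIRKO, and the means of the other 38 lie between -0.53 and 0.09.

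Loss of the insulin receptor without the transgene lowered Lamp1, Lipa, Map1lc3a and Atg5 and raised Npc1 and Ctsl. Of the 41 genes 6 rose and 8 fell in the hemizygous table, where 11.8% of the 13596 genes tested rose and 12.0% fell. The median difference was -0.05 over the 41 genes and 0.01 over all genes. Autophagy genes counted 1 up and 5 down of 23, lysosomal genes 4 up and 3 down of 14, and pump genes 1 up and 0 down of 4. In the homozygous table, from the same mice, 4 rose and 11 fell, against 13.8% and 14.0% of 13690 genes, with medians of -0.11 and 0.00. The balance of higher and lower depends on the setting, since with plain library sums 7 rose and 6 fell in the hemizygous and 6 rose and 6 fell in the homozygous table. Fewer cells of a type and less RNA per cell cannot be told apart in whole liver, here or in the later comparisons. Macrophage markers rose as well, 4 of 15 in the hemizygous and 8 of 15 in the homozygous table. With their mean as a covariate 7 of the 41 genes rose and 6 fell in the hemizygous table, and 3 rose and 4 fell in the homozygous table. Of all genes 2840 then passed in place of 3229, and 1734 in place of 3803. With the clock value as a covariate 2 of the 41 rose and 4 fell in the hemizygous table, and 3 rose and 9 fell in the homozygous table. Of all genes 1511 and 2645 then passed. The WT and LIRKO mice do not overlap in the clock value, so that genotype and clock value cannot be told apart here. Without the Prss2 libraries 1 WT mouse is left in each table, and the comparison rests on that mouse.

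Npc1, which moves cholesterol out of the lysosome, stood at 7.16, 6.98 and 7.46 log2 CPM in WT and at 8.58, 8.31, 8.15 and 8.18 in LIRKO. Every LIRKO mouse was above every WT mouse. The difference was 1.11 ± 0.20 (2.15-fold, adjusted p = 0.000242), and 0.96 ± 0.12 (adjusted p = 4.97e-05) in the homozygous table. It was 0.61 and did not pass in the hemizygous table with the clock value as a covariate.

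Lamp1 read 9.53, 9.18 and 9.35 in WT and 8.91, 8.94, 8.92 and 8.85 in LIRKO livers. All 4 LIRKO values lay below the lowest WT value, and Lamp1 fell by 0.45 ± 0.11 (adjusted p = 0.00441) and, in the homozygous table, by 0.49 ± 0.09 (adjusted p = 0.00111). Lipa, the acid lipase of the lysosome, read 7.83, 7.81 and 8.19 in WT and 7.58, 7.59, 7.39 and 7.48 in LIRKO, again without overlap. It fell by 0.43 ± 0.11 (adjusted p = 0.00504) and by 0.66 ± 0.09 (adjusted p = 7.84e-05) in the homozygous table, and without WT mouse 1601 the first was -0.31 and did not pass. Nor did it with the clock covariate (-0.40) or without the Prss2 libraries (-0.32). Ctsl, a cysteine protease, went the other way, from 8.49, 8.43 and 8.59 to 9.31, 9.44, 9.39 and 9.32. It rose by 0.86 ± 0.18 (adjusted p = 0.00114) and by 1.03 ± 0.25 (adjusted p = 0.00718), and the second did not pass with the macrophage covariate (1.03) or without the Prss2 libraries (1.12).

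Among autophagy genes Atg5, part of the complex that attaches LC3 to lipid, read 5.57, 5.41 and 5.44 in WT and 4.85, 5.04, 4.83 and 4.94 in LIRKO. The groups did not overlap, and it fell by 0.56 ± 0.11 (adjusted p = 0.000686). Map1lc3a, which encodes LC3A, read 5.34, 5.68 and 5.62 against 4.95, 4.82, 4.67 and 4.64, again with every LIRKO mouse lower. It fell by 0.78 ± 0.18 (adjusted p = 0.00324) and by 0.66 ± 0.11 (adjusted p = 0.000449) in the homozygous table, and without the Prss2 libraries it was -0.57 and -0.55 and passed in neither. Ulk1, the kinase that starts autophagy, read 6.42, 6.34 and 6.86 in WT and rose to 7.50, 7.26, 6.94 and 7.57. Its difference was 0.78 ± 0.21 (adjusted p = 0.00775) and 0.60 ± 0.18 (adjusted p = 0.0217), and without WT mouse 1586 it was 0.68 and 0.53 and passed in neither table. In the homozygous table it also did not pass without WT mouse 1564 (0.50) or LIRKO mouse 1600 (0.48) or 1468 (0.57), and in neither table with the clock covariate (0.53 and 0.50). Wipi2, which recruits the conjugation machinery, fell by 0.31 ± 0.08 (adjusted p = 0.0115) in the homozygous table, but did not pass with plain sums (-0.22), either covariate (-0.19 and -0.18) or without the Prss2 libraries (-0.28).

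Of the pump, Atp6v1b2, a subunit of its cytosolic ring, read 5.92, 5.69 and 5.81 in WT and 6.14, 6.14, 6.20 and 6.36 in LIRKO, without overlap. It rose by 0.40 ± 0.11 (adjusted p = 0.0133) and by 0.47 ± 0.09 (adjusted p = 0.00116), and without WT mouse 1586 the first was 0.34 and did not pass. Without the Prss2 libraries it was 0.29 and 0.38 and passed in neither. Atp6v0d1, a subunit of the membrane part, fell by 0.27 ± 0.07 (adjusted p = 0.00978) in the homozygous table, but did not pass with plain sums (-0.18), the macrophage covariate (-0.28) or without the Prss2 libraries (-0.25).

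Insulin receptor loss in hemizygous PiZ livers moved 20 of the 41 genes, 5 up and 15 down. Of all genes tested 16.7% rose and 17.7% fell, and the median was -0.08 for the 41 genes and 0.02 for all. Autophagy genes counted 2 up and 10 down of 23, lysosomal genes 2 up and 3 down of 14, and pump genes 1 up and 2 down of 4. In the conjugation machinery, the enzymes that attach Atg8 proteins to lipid, 4 of 5 genes fell and 0 rose, of which Atg3 and Atg7 did not pass with the macrophage covariate (-0.11 and -0.21, from -0.29 and -0.38), nor Atg3 with plain sums (-0.21). Macrophage markers averaged 4.21 log2 CPM in Z (3.95 to 4.62) and 4.97 in Z LIRKO (4.88 to 5.13), without overlap. Genotype and macrophage content therefore cannot be told apart here, also where a call held with the covariate. Of 6 endothelial markers 5 rose and 0 fell, and of 8 stellate markers 3 rose and 0 fell. Of 7 hepatocyte markers 2 rose and 2 fell. The part of these cell types in the result was not tested. Of the 20 calls 13 held under every alternative setting and without any 1 mouse.

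Atg5 read 5.28, 5.61, 5.68, 5.55 and 5.32 in Z and 5.00, 5.07, 4.88 and 4.78 in Z LIRKO. Atg12, its partner in the same conjugate, read 5.03, 4.81, 5.16, 5.02 and 5.05 in Z and 4.56, 4.40, 4.63 and 4.44 in Z LIRKO. Neither gene's groups overlapped, and Atg5 fell by 0.55 ± 0.10 (adjusted p = 0.000126) and Atg12 by 0.51 ± 0.09 (adjusted p = 0.000183). Wipi2 fell by 0.42 ± 0.08 (adjusted p = 0.000206), from 6.77 to 6.95 in Z to 6.33 to 6.56 in Z LIRKO.

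The Atg8 family split. Map1lc3a read 5.20, 5.33, 5.40, 5.54 and 5.53 in Z and 4.53, 4.47, 4.72 and 4.69 in Z LIRKO, and fell by 0.80 ± 0.16 (adjusted p = 0.000576). Gabarap read 8.10, 7.81, 7.94, 7.93 and 7.90 against 7.51, 7.69, 7.64 and 7.44, and fell by 0.36 ± 0.08 (adjusted p = 0.00152). Gabarapl1 read 8.97, 8.95, 8.99, 8.99 and 8.83 against 9.15, 9.35, 9.33 and 9.51, and rose by 0.39 ± 0.10 (adjusted p = 0.00387). In these 3 genes the groups were apart, 2 with Z LIRKO below and Gabarapl1 with Z LIRKO above. Gabarapl2 fell by 0.66 ± 0.18 (adjusted p = 0.00556) with overlap between the groups, and the call was lost with the macrophage covariate (-0.58). Map1lc3b differed by -0.06 ± 0.11 (adjusted p = 0.733). Tfeb rose from 3.23, 3.49, 3.19, 3.73 and 3.45 to 3.77, 3.53, 3.84 and 3.87, by 0.33 ± 0.12 (adjusted p = 0.0371). Its groups overlapped, and the call was lost without any 1 of 6 of the 9 mice (0.28 to 0.34, mice 1410, 1442, 1445, 1412, 1428 and 1450).

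In the lysosome Hexa, a subunit of beta-hexosaminidase, read 5.57, 5.43, 5.64, 5.67 and 5.66 in Z and 6.10, 6.20, 6.09 and 6.31 in Z LIRKO, and rose by 0.58 ± 0.10 (adjusted p = 6.31e-05). Npc1 read 6.57, 7.28, 7.44, 7.82 and 7.50 in Z and 8.02, 8.08, 8.39 and 8.48 in Z LIRKO, and rose by 0.92 ± 0.17 (1.89-fold, adjusted p = 0.000288). Lamp1 read 9.35, 9.81, 9.61, 9.79 and 9.58 against 9.18, 9.01, 9.08 and 9.07, and fell by 0.54 ± 0.10 (adjusted p = 0.000146). In all 3 the groups did not overlap, and each call held under every alternative setting and without any 1 mouse.

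Pump subunits moved in both directions. Atp6v1b2 read 5.66, 5.73, 5.67, 5.52 and 5.43 in Z and 6.05, 6.17, 6.25 and 6.19 in Z LIRKO, all higher, a rise of 0.56 ± 0.10 (adjusted p = 0.000159). Atp6v0d1 read 6.60, 6.52, 6.57, 6.73 and 6.56 against 6.16, 6.21, 6.16 and 6.18, all lower, a fall of 0.42 ± 0.07 (adjusted p = 6.75e-05). Atp6v1h, a regulatory subunit, fell by 0.31 ± 0.10 (adjusted p = 0.0228), and did not pass without Z mouse 1442 (-0.25) or Z LIRKO mouse 1428 (-0.28) or 1450 (-0.26), with the macrophage covariate (-0.15) or with plain sums (-0.22).

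The effect of insulin receptor loss was compared between Z and WT livers as an interaction. By limma 0 of the 41 genes passed, against 0.0588% up and 0.140% down of all genes, and 0 passed with voom weights. At an unadjusted p under 0.05 there were 6 genes, all with a negative interaction. The share of all genes at that threshold was not counted, and no direction of the members is read from these 6. A p above the threshold does not show that the effects were alike.

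**Figure D3:**
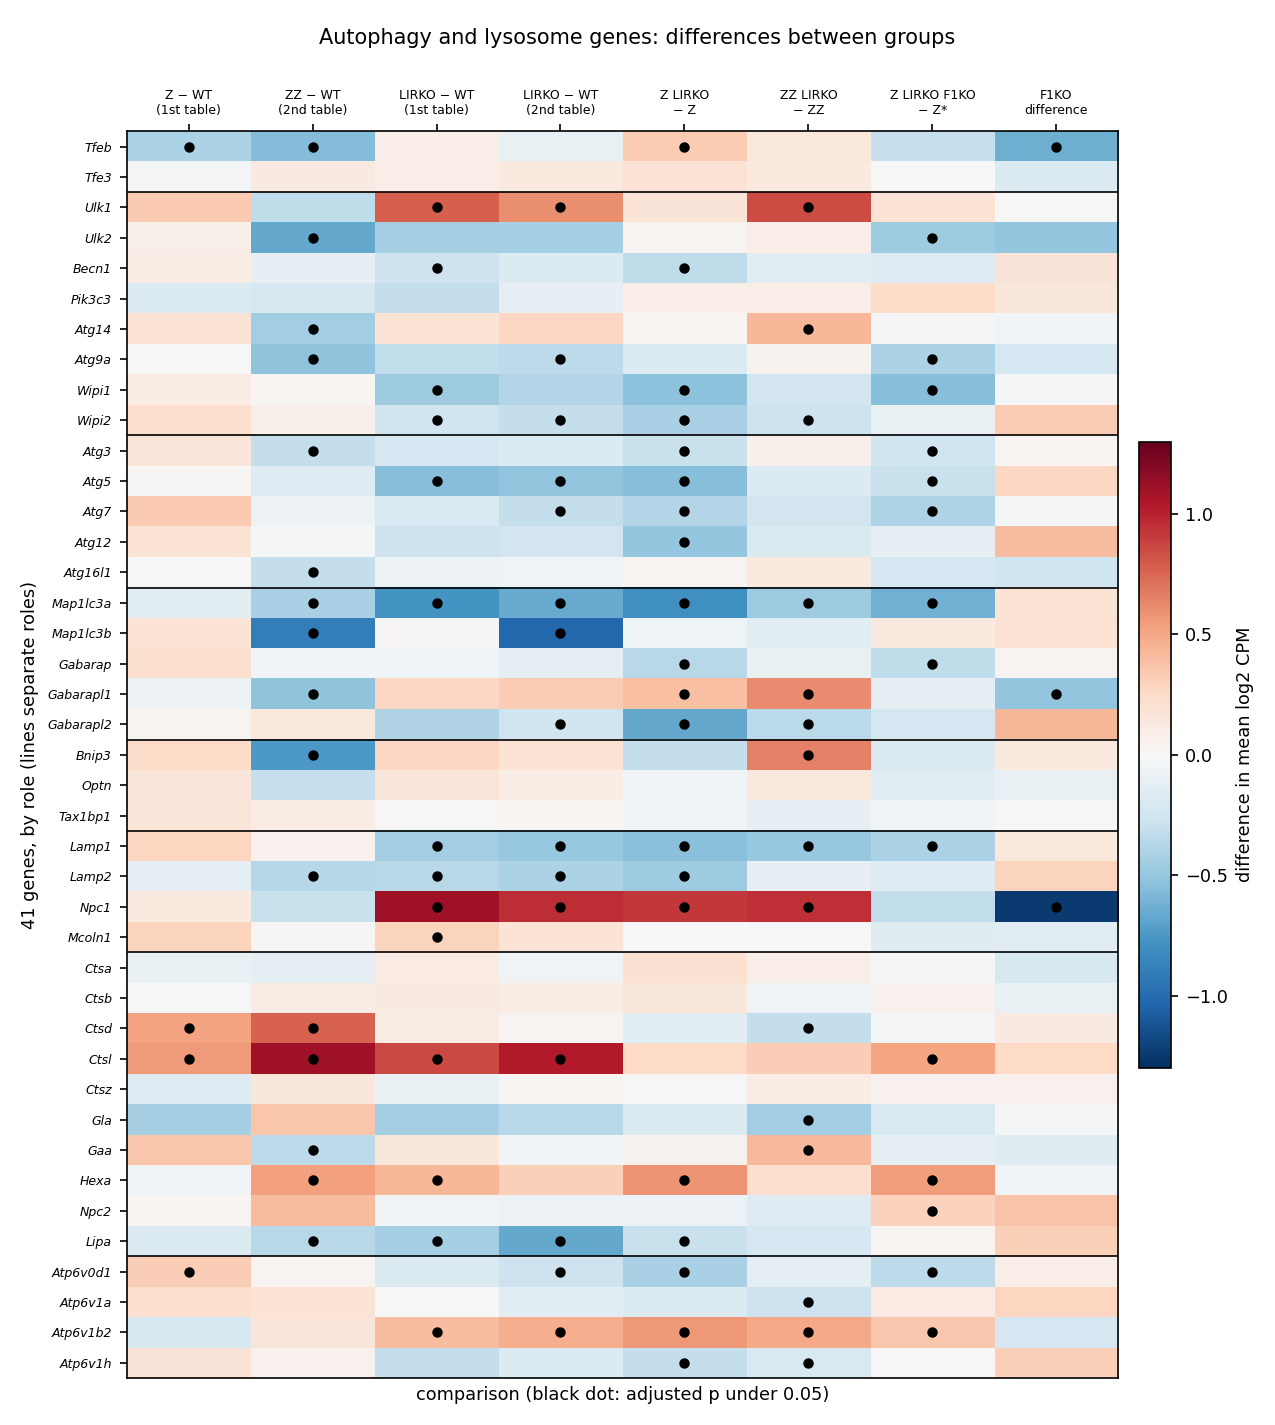
Log2 difference of each of the 41 genes (rows, by role) in 8 comparisons (columns), coloured from -1.3 (lower) to 1.3 (higher), with a black dot where the adjusted p is under 0.05; the 1st table is the hemizygous and the 2nd the homozygous one, and Z* is Zstar. Npc1, Lamp1, Map1lc3a and Atp6v1b2 keep 1 direction in the comparisons of insulin receptor loss without F1KO, and Npc1 has no dot in Z LIRKO F1KO against Zstar.

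Joint loss of the insulin receptor and FOXO1 in PiZ livers raised 4 and lowered 10 of the 41 genes against Zstar, where 12.4% of all genes rose and 11.1% fell. With plain library sums 10 rose and 3 fell, so that the balance turned over. The median was -0.12 for the 41 genes and -0.01 for all. Autophagy genes counted 0 up and 8 down of 23, lysosomal genes 3 up and 1 down of 14, and pump genes 1 up and 1 down of 4. The macrophage mean was 4.04 log2 CPM in Zstar (3.71 to 4.36) and 5.39 in Z LIRKO F1KO (4.76 to 5.97), without overlap. With it as a covariate 0 of the 41 genes passed in this comparison, and 204 of all 13596 genes in place of 3196. Since the groups do not overlap in the macrophage mean, genotype and macrophage content cannot be told apart here. Of 6 endothelial markers 3 rose and 0 fell, and of 8 stellate markers 3 rose and 0 fell. Of 7 hepatocyte markers 0 rose and 1 fell. The part of these cell types in the result was not tested.

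Hexa read 5.53, 5.60, 5.64, 5.58 and 5.28 in Zstar and 6.13, 5.95, 6.06, 5.98 and 6.22 in Z LIRKO F1KO, all higher, a rise of 0.54 ± 0.09 (adjusted p = 0.000154). Lamp1 read 9.74, 9.82, 9.71, 9.83 and 9.70 against 9.57, 9.37, 9.37, 9.15 and 9.29, all lower, a fall of 0.41 ± 0.09 (adjusted p = 0.00215). Ctsl rose by 0.52 ± 0.15 (adjusted p = 0.0134), from 8.60, 8.39, 8.46, 8.37 and 8.29 to 8.52, 8.59, 9.22, 9.16 and 9.20, with 2 of the 5 F1KO mice inside the Zstar range. Ctsl differed by -0.13 with the macrophage covariate and by 0.36 without the Prss2 libraries, and passed in neither.

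Wipi1, an adaptor at the forming autophagosome, read 4.71, 4.86, 4.46, 4.87 and 4.81 in Zstar and 4.45, 4.31, 4.06, 3.92 and 4.17 in Z LIRKO F1KO. All F1KO mice were lower, and it fell by 0.56 ± 0.11 (adjusted p = 0.00111). Gabarap fell by 0.33 ± 0.08 (adjusted p = 0.00359) without overlap and Map1lc3a by 0.62 ± 0.15 (adjusted p = 0.00451) with overlap. Atp6v0d1 fell by 0.34 ± 0.06 (adjusted p = 0.000644) and Atp6v1b2 rose by 0.35 ± 0.09 (adjusted p = 0.00977). With plain sums Gabarap (-0.11) and Atp6v0d1 (-0.12) did not pass, and with the macrophage covariate Atp6v1b2 was at -0.02.

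The difference between the joint loss and insulin receptor loss alone, each against its own PiZ controls, passed for 3 of the 41 genes, all lower, where 3.27% of all genes were higher and 3.35% lower. The 3 were Npc1, Gabarapl1 and Tfeb, and the median was 0.03 for the 41 genes and 0.02 for all. With plain sums 7 genes passed as higher and 1, Npc1, as lower. Npc1 read 7.58, 7.46, 7.56, 7.43 and 7.13 in Zstar and 7.22, 7.00, 7.39, 6.95 and 6.99 in Z LIRKO F1KO. The high level of the LIRKO mice with FOXO1, 8.02 to 8.58, was reached by no F1KO mouse. The change against Zstar was -0.32 ± 0.16 (adjusted p = 0.16) and the difference of the effects -1.24 ± 0.24 (adjusted p = 0.00216). It was -1.07 with the macrophage covariate and -1.11 with plain library sums, and the call held in all settings and without any 1 of the 19 mice.

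Gabarapl1 read 8.68, 8.85, 8.83, 9.09 and 8.92 in Zstar and 9.03, 8.88, 8.69, 8.56 and 8.60 in Z LIRKO F1KO, with overlap and a difference of -0.12 ± 0.09 (adjusted p = 0.378). Its difference of the effects was -0.51 ± 0.14 (adjusted p = 0.0249), and it did not pass without Z LIRKO mouse 1450 (-0.45) or F1KO mouse 206 (-0.47), with plain sums (-0.38), the macrophage covariate (-0.39) or without the Prss2 libraries (-0.41). Tfeb read 3.75, 3.18, 3.52, 3.54 and 3.85 in Zstar and 3.31, 3.20, 3.40, 3.29 and 3.16 in Z LIRKO F1KO, with overlap and a difference of -0.30 ± 0.12 (adjusted p = 0.0646). Its difference of the effects was -0.63 ± 0.17 (adjusted p = 0.0249), lost without Z mouse 1442 (-0.57) or Z LIRKO mouse 1428 (-0.60) or 1450 (-0.59), with plain sums (-0.50), the macrophage covariate (-0.61) or without the Prss2 libraries (-0.63).

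**Figure D4:**
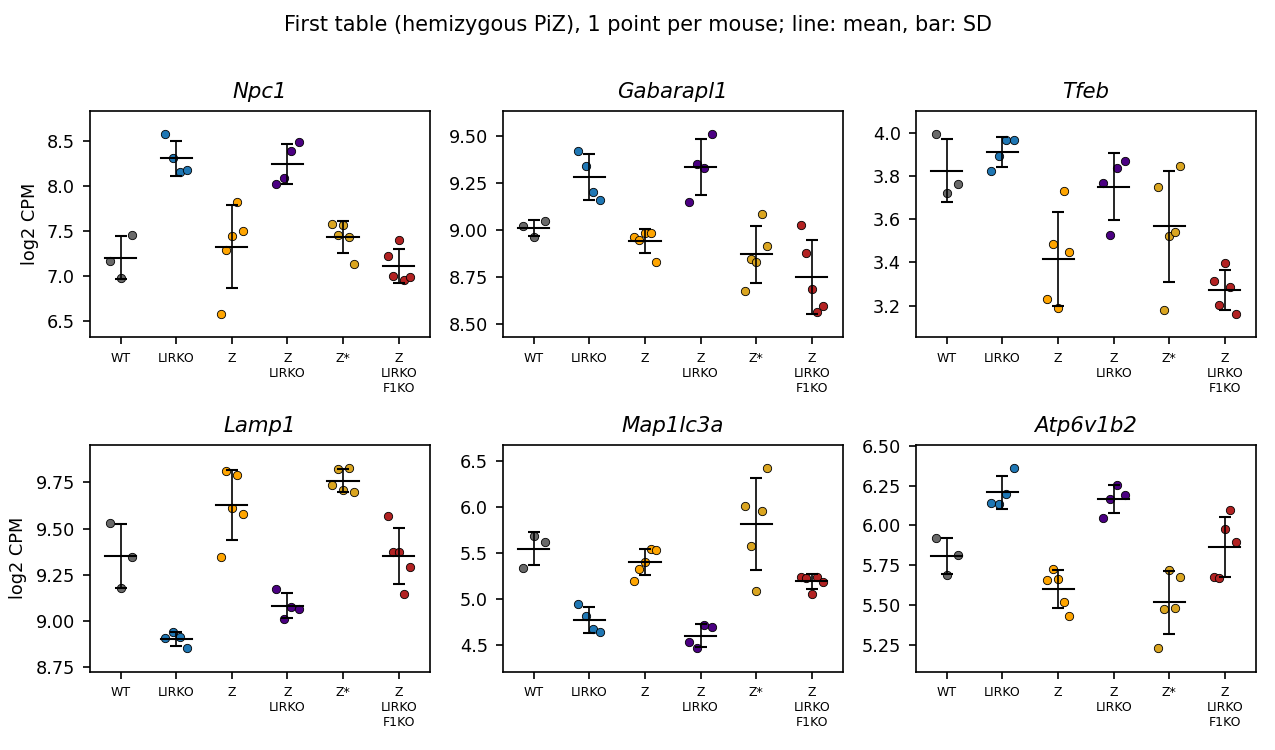
Log2 CPM of Npc1, Gabarapl1, Tfeb, Lamp1, Map1lc3a and Atp6v1b2 in the 6 groups of the hemizygous table, 1 point per mouse, with the mean as a line and the SD as a bar. Npc1 is high in LIRKO and Z LIRKO (8.02 to 8.58) and at 6.95 to 7.39 in Z LIRKO F1KO, while the mean of Lamp1 is lower and that of Atp6v1b2 higher in each group with insulin receptor loss than in its controls (Z* is Zstar).

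In Z against WT livers Ctsd, Ctsl and Atp6v0d1 were higher and Tfeb was lower, and 0 of these 4 calls held under every alternative setting. The clock value averaged 0.29 in WT (-0.73 to 1.48) and 2.39 in Z (0.03 to 3.59), so the groups differ in it too. Of 41 genes 3 rose and 1 fell in Z against WT, and of all genes 5.89% rose and 4.54% fell, shares close to those of the 41. With Zstar in place of Z 6 rose and 2 fell. The median was 0.10 for the 41 genes and -0.01 for all, and 0 of 15 macrophage markers passed in either direction. Ctsd, an aspartic protease of the lysosome, read 8.61, 8.37 and 8.49 in WT and 9.01, 9.05, 8.95, 9.14 and 8.91 in Z. All Z values were above the WT values, and it rose by 0.52 ± 0.11 (adjusted p = 0.00343). It did not pass with the clock covariate (0.48) or without the Prss2 libraries (0.40). The WT mice are the controls of LIRKO too, so that both sets of differences share them.

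Ctsl read 8.49, 8.43 and 8.59 in WT and 9.65, 9.03, 8.86, 8.76 and 8.99 in Z. It rose by 0.55 ± 0.17 (adjusted p = 0.0385), but did not pass without Z mouse 1410 (0.40), 1411 (0.56) or 1445 (0.57), or without any 1 WT mouse (0.52 to 0.60). With Zstar in place of Z it read -0.08. Atp6v0d1 rose from 6.35, 6.25 and 6.22 to 6.60, 6.52, 6.57, 6.73 and 6.56, by 0.32 ± 0.08 (adjusted p = 0.00655), without overlap, but did not pass with the clock covariate (0.28) or without the Prss2 libraries (0.25). Tfeb fell by 0.41 ± 0.13 (adjusted p = 0.0498), with a Z value inside the WT range, and the call was lost without any 1 of 7 of the 8 mice (all but Z mouse 1443, -0.32 to -0.46).

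Both PiZ control groups were also compared with each other, since they differ in source. In Zstar against Z 2 of the 41 genes rose and 2 fell, where 4.37% of all genes rose and 5.10% fell. The medians were -0.02 for the 41 genes and 0.00 for all. Ctsl was lower in every Zstar mouse (8.29 to 8.60) than in any Z mouse (8.76 to 9.65), by 0.64 ± 0.15 (adjusted p = 0.00806). Gla read 2.40, 2.29, 2.05, 1.90 and 1.71 in Z and 2.62, 2.81, 2.74, 2.81 and 2.59 in Zstar, and rose by 0.64 ± 0.16 (adjusted p = 0.0149), though not without Z mouse 1445 (0.56). Optn, an autophagy receptor, fell by 0.30 ± 0.09 (adjusted p = 0.0322) and Ctsa, a protective protein for other lysosomal enzymes, rose by 0.38 ± 0.11 (adjusted p = 0.0387). Optn did not pass without any 1 of 7 mice and Ctsa without any 1 of 6 mice of the 10, with differences of -0.30 to -0.23 and of 0.30 to 0.39.

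With the homozygous transgene Ctsd, Ctsl and Hexa rose, and Map1lc3b, Atg9a and Bnip3 fell. In ZZ against WT 3 of 41 rose and 13 fell, and of all genes 16.1% rose and 14.2% fell. The balance rests on the scaling, since with plain library sums, which moved the median of all genes by 0.27, 16 of the 41 rose and 2 fell. The median was -0.07 for the 41 genes and -0.04 for all. Autophagy genes counted 0 up and 10 down of 23 with a median of -0.30, lysosomal genes 3 up and 3 down of 14, and pump genes 0 in either direction of 4. At an unadjusted p under 0.05 the whole set of 41 had 5 up and 15 down. The share of all genes at that threshold was not counted, and nothing about the 41 is read from it. Macrophage markers averaged 3.52 log2 CPM in WT (3.26 to 3.69) and 4.85 in ZZ (4.67 to 4.98), 9 of 15 rising and 1 falling, and 7 of 8 stellate and 5 of 5 cholangiocyte markers rose. Of 7 hepatocyte markers 0 rose and 4 fell, and their mean was 12.74 in WT (12.64 to 12.88) and 12.03 in ZZ (11.82 to 12.18). Of 6 endothelial markers 0 rose and 2 fell. The part of these cell types in the result was not tested. With the macrophage mean as a covariate 0 of the 41 genes passed, and 34 of all 13690 genes in place of 4149. The groups do not overlap in that mean, so that genotype and macrophage content cannot be told apart here.

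Ctsd read 8.42, 8.18 and 8.35 in WT and 9.31, 9.09 and 8.85 in ZZ. Every ZZ mouse was higher, and it rose by 0.77 ± 0.11 (adjusted p = 0.000125). Ctsl read 8.33, 8.31 and 8.61 against 9.51, 9.58 and 9.46, and rose by 1.10 ± 0.27 (adjusted p = 0.00624). Lamp2, a lysosomal membrane protein that also serves chaperone-mediated autophagy, went from 9.42, 9.32 and 9.33 to 8.95, 8.99 and 9.00, a fall of 0.37 ± 0.09 (adjusted p = 0.00571). None of these groups overlapped. With plain library sums Lamp2 read -0.10 and did not pass.

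Map1lc3b read 8.56, 8.87 and 8.33 in WT and 7.54, 7.60 and 7.93 in ZZ, and fell by 0.90 ± 0.17 (adjusted p = 0.000883) in this table. Atg9a, the membrane protein that seeds autophagosomes, read 5.50, 5.42 and 5.32 against 4.76, 4.80 and 5.11, and fell by 0.52 ± 0.10 (adjusted p = 0.00132), though with plain sums it was -0.25 and did not pass. Bnip3 read 6.45, 6.95 and 7.16 against 5.98, 6.03 and 6.31, and fell by 0.75 ± 0.16 (adjusted p = 0.00227), and without the Prss2 libraries it was -0.45 and did not pass. In each the ZZ mice were all below the WT mice. Tfeb fell by 0.56 ± 0.14 (adjusted p = 0.00545), from 3.96, 3.66 and 3.81 to 3.12, 3.24 and 3.38, and with plain sums it was -0.29 and did not pass. Map1lc3a fell by 0.42 ± 0.12 (adjusted p = 0.0134) and Gabarapl1 by 0.52 ± 0.19 (adjusted p = 0.0495), and without ZZ mouse 1682 Map1lc3a was -0.29 and did not pass. Gabarapl1 read 9.02, 8.96 and 9.19 in WT and 8.52, 8.14 and 8.94 in ZZ, and its call was lost without any 1 of 5 of the 6 mice (all but ZZ mouse 1846, -0.57 to -0.33).

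Insulin receptor loss in ZZ livers raised 7 and lowered 8 of the 41 genes, against 13.2% and 13.6% of all genes. The medians were -0.05 and -0.01. Autophagy genes counted 4 up and 3 down of 23, lysosomal genes 2 up and 3 down of 14, and pump genes 1 up and 2 down of 4. The macrophage mean was 4.85 in ZZ (4.67 to 4.98) and 4.96 in ZZ LIRKO (4.65 to 5.24), with overlap. Single macrophage markers moved both ways, 5 of 15 higher and 2 lower, with differences from -1.41 to 2.01. Of the 15 calls 9 held under every alternative setting and without any 1 mouse. All 5 cholangiocyte and 4 of 8 stellate markers fell. Of 6 endothelial markers 5 rose and 0 fell, and of 7 hepatocyte markers 3 rose and 1 fell. The part of these cell types in the result was not tested.

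Npc1 read 6.78, 6.50 and 6.87 in ZZ, and in the 7 ZZ LIRKO mice its lowest, median and highest values were 7.46, 7.71 and 7.80. All ZZ LIRKO mice were higher, and the rise was 0.95 ± 0.11 (1.93-fold, adjusted p = 2.42e-05). Ulk1 read 5.90, 6.07 and 6.35 against 6.64, 6.96 and 7.24 (lowest, median and highest), and rose by 0.85 ± 0.16 (adjusted p = 0.00128). Lamp1 read 9.43, 9.31 and 9.54 against 8.82, 8.96 and 9.02, and fell by 0.49 ± 0.08 (adjusted p = 0.000433). Neither gene's groups overlapped.

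Gaa, the acid alpha-glucosidase that breaks down glycogen in the lysosome, read 6.81, 6.80 and 6.88 in ZZ and 7.05, 7.22 and 7.51 in ZZ LIRKO, and rose by 0.42 ± 0.08 (adjusted p = 0.00154). Bnip3 read 5.98, 6.03 and 6.31 against 6.53, 6.75 and 7.01, and rose by 0.66 ± 0.13 (adjusted p = 0.00197). Both were without overlap. Atp6v1b2 rose by 0.50 ± 0.08 (adjusted p = 0.000324), from 5.90, 5.60 and 5.73 to 6.01, 6.24 and 6.36. Atp6v1h fell by 0.19 ± 0.06 (adjusted p = 0.0329) and Atp6v1a, the catalytic subunit, by 0.27 ± 0.10 (adjusted p = 0.0436). Without ZZ mouse 1682 these 2 read -0.14 and -0.16 and did not pass, and the same held for Atp6v1h without ZZ mouse 1846 (-0.20) or ZZ LIRKO mouse 1877 (-0.18) or 1813 (-0.18). Atp6v1a also did not pass without ZZ mouse 1809 (-0.32) or ZZ LIRKO mouse 1877 (-0.25), 1876 (-0.23), 1855 (-0.27) or 1813 (-0.26).

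In the Atg8 family Gabarapl2 read 5.45, 5.45 and 5.43 in ZZ and 4.93, 5.10 and 5.29 in ZZ LIRKO, and fell by 0.36 ± 0.07 (adjusted p = 0.00179). Map1lc3a fell by 0.47 ± 0.10 (adjusted p = 0.00249), from 4.89, 5.30 and 5.27 to 4.48, 4.73 and 4.83. Gabarapl1 rose by 0.61 ± 0.16 (adjusted p = 0.0106), from 8.52, 8.14 and 8.94 to 8.77, 9.16 and 9.44. Its groups overlapped, and without ZZ mouse 1809 it was 0.42 and did not pass.

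The interaction of ZZ and LIRKO passed for 3 of the 41 genes, all positive, where 3.03% of all genes were positive and 4.72% negative, with medians of 0.07 and 0.01. With plain sums, which moved the median of all genes by -0.26, 0 passed as positive and 4 as negative, and Gaa (0.20), Lipa (0.18) and Map1lc3b (0.61) did not pass. Gaa and Lipa were lower in ZZ than in WT, Lipa falling by 0.36, and with LIRKO Gaa was 7.05 to 7.51 in ZZ and 7.06 to 7.17 without the transgene. The interaction was 0.47 ± 0.13 for Gaa (adjusted p = 0.0343), 0.44 ± 0.12 for Lipa (adjusted p = 0.0368) and 0.88 ± 0.21 for Map1lc3b (adjusted p = 0.0207). None of the 3 held in every fit that left out 1 mouse: Map1lc3b was lost without WT mouse 1586 (0.74) or ZZ mouse 1809 (0.83) or 1682 (0.80), Lipa without any 1 of 6 of the 17 mice (0.33 to 0.48) and Gaa without any 1 of 9 (0.44 to 0.49). With the macrophage covariate 0 of the 41 passed, and 393 of all genes in place of 1061. Without the Prss2 libraries this interaction rests on 1 WT mouse.

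**Figure D5:**
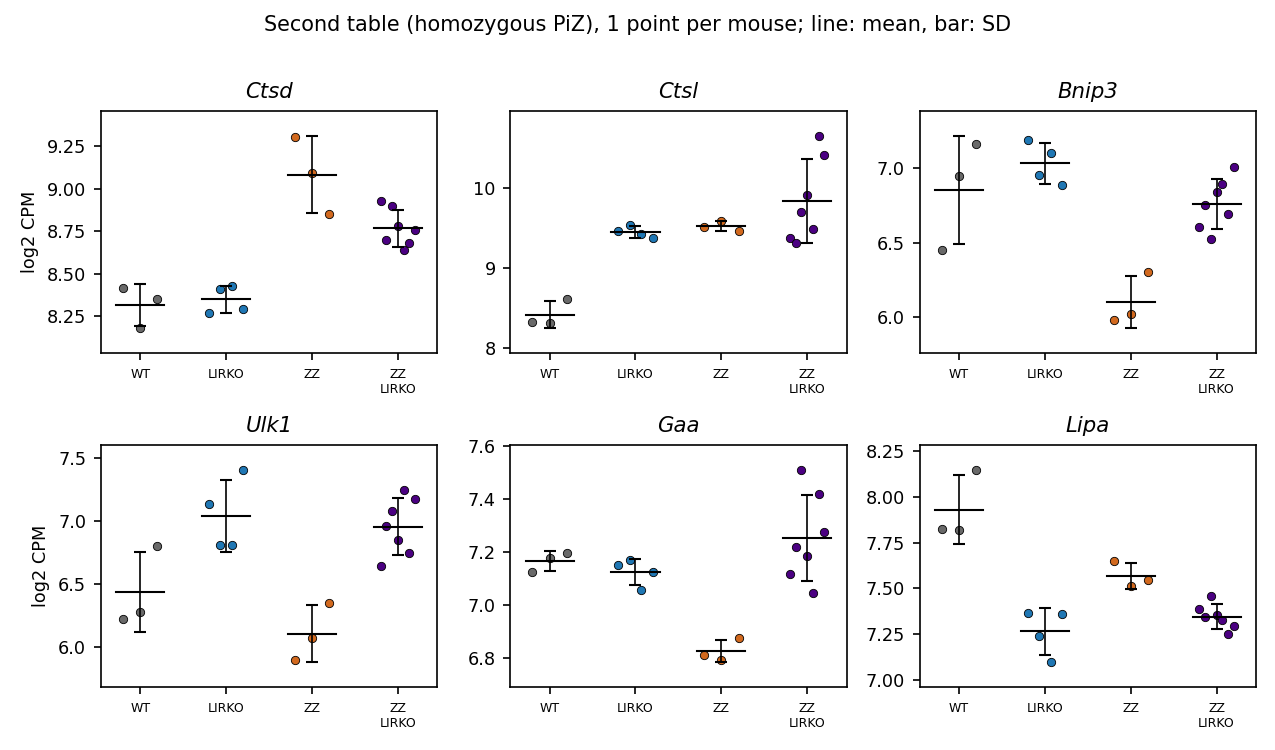
Log2 CPM of Ctsd, Ctsl, Bnip3, Ulk1, Gaa and Lipa in the 4 groups of the homozygous table, 1 point per mouse, with the mean as a line and the SD as a bar. Ctsd has its highest mean in ZZ (mice at 8.85 to 9.31), Bnip3, Ulk1 and Gaa have their lowest means in ZZ, and Ctsl is lowest in WT (8.31 to 8.61).

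Across the 5 comparisons of insulin receptor loss, of which LIRKO against WT appears in both tables with the same mice, 3 genes passed in all 5. Lamp1 fell by 0.41 to 0.54, Map1lc3a fell by 0.47 to 0.80 and Atp6v1b2 rose by 0.35 to 0.56. Another 3 passed in 4 of the 5, with Wipi2 and Atg5 lower and Npc1 higher, and 9 passed in 3. No gene of the 41 passed in both directions, which was not counted for all genes, and 8 passed in none. Of 13044 genes tested in both, 2.91% passed in all 5 comparisons, 8.29% in 4, 10.6% in 3 and 36.2% in none, and nothing particular to the 41 is read from their counts. These 8 were Tfe3, Pik3c3, Atg16l1, Optn, Tax1bp1, Ctsa, Ctsb and Ctsz. Tfe3 differed by -0.18 to 0.18 and did not pass in any of the 11 comparisons, nor did Pik3c3, Tax1bp1, Ctsb or Ctsz.

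Other genes of the same pathways came from a list of 94, of which 93 were tested, and the shares of all genes are given in brackets, higher then lower. Of these 12 rose and 9 fell in LIRKO against WT of the hemizygous table (11.8% and 12.0%), and 8 rose and 25 fell in Z LIRKO against Z (16.7% and 17.7%). In Z LIRKO F1KO against Zstar 8 rose and 12 fell (12.4% and 11.1%), in Z against WT 7 rose and 1 fell (5.89% and 4.54%) and in Zstar against Z 5 rose and 4 fell (4.37% and 5.10%). Of the same 93 genes in the homozygous table, 14 rose and 15 fell in LIRKO against WT (13.8% and 14.0%), 13 rose and 14 fell in ZZ against WT (16.1% and 14.2%) and 12 rose and 23 fell in ZZ LIRKO against ZZ (13.2% and 13.6%). In Z LIRKO against Z the autophagy part of the list counted 0 up and 11 down of 34. The lysosome part counted 7 up and 12 down of 48 and the pump part 1 up and 2 down of 11. The autophagy part counted 4 up and 11 down in ZZ LIRKO against ZZ, 3 up and 0 down in Z against WT and 4 up and 8 down in ZZ against WT. Counts of this list were not made under other settings.

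Plbd2, a lysosomal phospholipase-like protein, rose by 1.41 ± 0.14 (adjusted p = 1e-07) in LIRKO against WT of the hemizygous table and by 0.99 ± 0.12 (adjusted p = 1.39e-06) in Z LIRKO against Z. It fell by 0.32 ± 0.11 (adjusted p = 0.0413) in Z LIRKO F1KO against Zstar, and the difference of the effects was -1.31 ± 0.16 (adjusted p = 1.95e-05). That difference held in every setting and without any 1 mouse. Trp53inp2, which encodes a nuclear and autophagosomal cofactor, fell in the same 3 comparisons by 1.58 ± 0.17 (adjusted p = 4.35e-07), 1.61 ± 0.15 (adjusted p = 2.33e-08) and 1.08 ± 0.14 (adjusted p = 1.27e-05).

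Rragd, a Rag GTPase that recruits mTORC1 to the lysosome, averaged 0.85 log2 CPM in WT and 4.47 in ZZ of the homozygous table, a rise of 3.62 ± 0.18 (adjusted p = 3.06e-09). It rose by 2.53 ± 0.29 (adjusted p = 7.4e-07) in Z LIRKO against Z, and its interaction of ZZ and LIRKO was -1.76 ± 0.23 (adjusted p = 0.000565). Cd63, a tetraspanin of late endosomes and lysosomes, rose by 2.95 ± 0.39 (adjusted p = 7.47e-06) in LIRKO against WT and by 3.54 ± 0.34 (adjusted p = 3.13e-06) in ZZ against WT. Its mean was 5.50 in ZZ and 5.29 in ZZ LIRKO, with an interaction of -3.34 ± 0.43 (adjusted p = 0.000565). Sqstm1, the cargo receptor p62 that gathers ubiquitinated proteins, rose by 0.84 ± 0.14 (adjusted p = 0.00034) in ZZ against WT. With the macrophage covariate Cd63 (2.89), Trp53inp2 (-0.82) and Sqstm1 (0.63) did not pass in ZZ against WT, nor did Trp53inp2 (-0.85) in Z LIRKO F1KO against Zstar. Cd63 in the last comparison rose by 1.79 ± 0.32 (adjusted p = 0.000367) and was 0.87 with the covariate, without passing.

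Further genes of that list were chosen by their p in single comparisons. In Z against WT Trp53inp1, a stress-induced relative of Trp53inp2, rose by 2.71 ± 0.42 (adjusted p = 0.000227), Tex264, a receptor for autophagy of the endoplasmic reticulum, rose by 0.44 ± 0.08 (adjusted p = 0.00115), Plbd2 rose by 0.61 ± 0.13 (adjusted p = 0.00364) and the protease gene Ctsc fell by 0.74 ± 0.18 (adjusted p = 0.00851), though not without WT mouse 1586 (-0.55). Without the Prss2 libraries Ctsc (-0.30) and Tex264 (0.44) did not pass, nor did Ctsc (-0.72) and Plbd2 (0.44) with the clock covariate. In Z LIRKO F1KO against Zstar the protease gene Lgmn rose by 0.71 ± 0.09 (adjusted p = 1.27e-05), and Smpd1, acid sphingomyelinase, fell by 0.44 ± 0.08 (adjusted p = 0.000345). With the macrophage covariate they were 0.38 and -0.43 and neither passed. Mitf, of the TFEB family, fell by 1.21 ± 0.15 (adjusted p = 3.07e-05) in ZZ LIRKO against ZZ.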

How the data were processed

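Liver RNA was sequenced, and the authors deposited moderated log2 CPM values per gene in a hemizygous and a homozygous table, per the labels. STAR 2.0.4b, Subread and featureCounts 1.4.5 with GRCm38 are named in the submitters' processing notes. The strand setting of counting is not given in the sources used here. All values came out as whole reads (within 0.01 reads) with 0.5 added before scaling, and the effective library sizes were 0.875 to 1.14 (hemizygous) and 0.900 to 1.18 (homozygous) of the summed reads. A count of 3 reads, the limit that a count of 0 allows for counting error, corresponds to -2.47 and -4.21 log2 CPM in the median library of each table. Gene lines repeated with identical values (115 and 55) were kept once. The hemizygous table has 1 sample column that matched no label, and it was not used.

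Within each table the log2 CPM values were fitted with limma 3.58.1 in R 4.3.3, with 1 mean per group over all groups and a trended prior. Genes at 0 log2 CPM or more in at least 3 libraries were tested, 13596 and 13690, and p-values were adjusted by Benjamini-Hochberg over all of them with a threshold of 0.05. The procedure was tested on simulated data. Tables were normalized separately, so tests stay within a table. Mouse numbers were taken as separate animals.

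The members and all gene and marker lists were chosen with earlier results of these data known. Genes named were, in each comparison, the up to 3 called members with the smallest p in each of the 3 role groups, the Atg8 family, Tfeb and Tfe3, and up to 4 other pathway genes; members that pass in several insulin receptor comparisons or change under a setting are also named. One of the other pathway genes is not reported here. Coordinates, exon lengths and overlaps come from GENCODE M21, and promoters from RefSeq. Figures were drawn with matplotlib 3.10.9 in Python 3.11.15.

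Alternatives were no filter, log2(CPM + 1), voom weights on the recovered reads, plain library sums, median-of-ratios scaling, only the groups compared in the fit, a clock value or the mean of macrophage markers as a covariate, leaving out libraries above 0 log2 CPM of Prss2, leaving out each mouse, Zstar in place of Z, and Z and Zstar together.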

Additional observations from a re-analysis of the deposited data

Results flagged for a closer look

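In 203 checks, each of 1 of 29 named genes in 1 group of 4 to 7 mice, 6 found 1 mouse far from the others. Chance gives about 1 in 20 checks, and 6 of 203 is not above that rate. In the hemizygous table these were Ctsd in LIRKO mouse 1474 (8.728 log2 CPM), Map1lc3a in Z LIRKO F1KO mouse 201 (5.055), Gabarapl1 in Z mouse 1445 (8.831) and Lipa in Zstar mouse 120 (7.437). In the homozygous table LIRKO mouse 1483 stood apart in both Atp6v1b2 (5.968) and Atg9a (5.129).

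Among the genes named by the rule, the effect of insulin receptor loss differed between backgrounds in 13 cases, by a test of the difference itself. These are a selection. Of the 93 other pathway genes 5 were higher and 3 lower in the difference with F1KO (3.27% and 3.35% of all genes). In the interaction of ZZ and LIRKO 4 were positive and 5 negative (3.03% and 4.72% of all genes). Against loss of the receptor alone, joint loss with FOXO1 differed by -0.6299 for Tfeb, -1.243 for Npc1, -0.512 for Gabarapl1 and -1.307 for Plbd2 on the log2 scale. It differed by 0.9703 for Arsa, which encodes arylsulfatase A, and by 0.5233 for Atg13, part of the Ulk1 complex. Arsa did not pass without Z LIRKO mouse 1412 (0.81) or 1427 (0.85) or Zstar mouse 120 (0.86), and Atg13 not without any 1 of 8 of the 19 mice (0.46 to 0.52). Between ZZ and WT livers the effect differed by 0.4423 for Lipa, 0.4652 for Gaa, 0.8779 for Map1lc3b and 1.032 for Trp53inp2, and by -1.006 for the sulfatase gene Galns, -3.338 for Cd63 and -1.76 for Rragd.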

How the results depend on the processing

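Of the 108 calls of members over the comparisons, 31 held under every setting and without any 1 mouse. By setting, 107 held with log2(CPM + 1), 107 with voom weights, 106 without the filter, 104 with median-of-ratios scaling, 88 with the clock covariate, 84 with only the groups compared, 72 with plain sums, 61 without the Prss2 libraries and 51 with the macrophage covariate. The causes were not tested.

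Counts of members called moved as follows. For Z against WT (4) it was 0 with the clock covariate, 0 without the Prss2 libraries, 1 with only the groups compared and 8 with Zstar in place of Z. For LIRKO against WT (14, hemizygous) it was 6 with the clock covariate and 6 without the Prss2 libraries, and in the homozygous table (15) 7 with the macrophage covariate and 9 without the Prss2 libraries. For Z LIRKO F1KO against Zstar (14) it was 0 with the macrophage covariate and 7 without the Prss2 libraries, and for its difference from Z LIRKO against Z (3) 8 with plain sums, 1 without the Prss2 libraries and 1 with only the groups compared. Zstar against Z (4) gave 2 with only the groups compared. ZZ against WT (16) gave 0 with the macrophage covariate, 5 without the Prss2 libraries and 10 with only the groups compared. ZZ LIRKO against ZZ (15) gave 24 with plain sums, and the interaction of ZZ and LIRKO (3) gave 0 with the macrophage covariate and 0 without the Prss2 libraries.

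Changes of sign are listed only where the main fit or the setting gave a call. With the macrophage covariate Atg3 (0.052), Ctsl (-0.13), Npc2 (-0.12) and Atp6v1b2 (-0.022) changed sign in Z LIRKO F1KO against Zstar. Tax1bp1 did so in the same comparison with plain sums (0.18, adjusted p = 0.0461 by limma). Ctsl did so in Z against WT with Zstar in place of Z (-0.085).

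Leaving out 1 mouse gave 2 to 6 calls for Z against WT, 10 to 13 for LIRKO against WT in either table, 16 to 21 for Z LIRKO against Z, 9 to 15 for Z LIRKO F1KO against Zstar and 1 to 6 for Zstar against Z. It gave 10 to 16 for ZZ against WT, 11 to 15 for ZZ LIRKO against ZZ, 0 to 3 for the interaction of ZZ and LIRKO and 0 for that of Z and LIRKO. The difference with F1KO gave 1 (without Z LIRKO mouse 1450) to 5 (without F1KO mouse 207).

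Plain sums moved the median of all genes by 0.22 in Z LIRKO F1KO against Zstar, 0.13 in its difference, 0.27 in ZZ against WT, -0.18 in ZZ LIRKO against ZZ and -0.26 in the interaction of ZZ and LIRKO. Of the 41 genes 10 were then called higher and 3 lower, 7 and 1, 16 and 2, 7 and 17, and 0 and 4, in place of 4 and 10, 0 and 3, 3 and 13, 7 and 8, and 3 and 0. Genes called higher and lower were then 3773 and 526 in place of 1685 and 1511, 856 and 289 in place of 445 and 456, 4196 and 485 in place of 2205 and 1944, 975 and 3841 in place of 1811 and 1855, and 132 and 2181 in place of 415 and 646. For LIRKO against WT they were 2022 and 1091 in place of 1598 and 1631, and 2374 and 1232 in place of 1890 and 1913 in the homozygous table. For Z LIRKO against Z they were 2801 and 1657 in place of 2268 and 2401, for Zstar against Z 416 and 978 in place of 594 and 694, and for Z against WT 937 and 447 in place of 801 and 617.

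No paired analysis was possible because the groups compared within a table hold different mice. Groups of 3 WT and 3 ZZ mice limit the precision, and low genes such as Gla and Gabarapl2 rest on fewer reads in the hemizygous table.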
